A study of Mus musculus with 6 samples.

Results

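The nuclear genes that encode subunits of the oxidative phosphorylation (OXPHOS) complexes were followed in murine embryonic stem cells (ESCs) depleted of cohesin or condensin. The genes were chosen by symbol, from the RefSeq accessions in the files: symbols that begin with Ndufa, Ndufb, Ndufc, Ndufs, Ndufv, Sdha to Sdhd, Uqcr, Cox4i, Cox5, Cox6, Cox7, Cox8 or Atp5, without Ndufa4l2 and the Ndufaf assembly factors. This gave 94 of 26073 RefSeq rows, and after the row with the most counts was kept for each gene, 85 of 20706 genes. By complex, 37 were of complex I, 4 of complex II, 8 of complex III, 19 of complex IV and 17 of complex V, the ATP synthase. Ndufa4 was placed in complex IV, where its protein resides, and Ndufs5-ps, a transcribed pseudogene, was taken in by its symbol.

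V6.5 is a mouse ESC line that is maintained on irradiated fibroblast feeders and was plated off them before infection with lentiviral shRNA vectors. All 6 libraries came from cells infected with polybrene at 8 µg/ml and selected with puromycin, at 0.5 and then 1 µg/ml for 48 hr each per the labels, and RNA was taken 5 days after infection. The GFP library carried a hairpin against GFP as control and the SMC1 library a hairpin against Smc1a, a cohesin subunit gene, with 1 library each. There were 2 libraries for CAPH2, a condensin II subunit encoded by Ncaph2, and 2 for SMC2, a subunit of both condensins, with a different hairpin in each library of a pair. These 4 are called the condensin libraries below. RPKM, the read count of a gene per kilobase of exon and per a fixed number of the library's reads, rested on 18823247 to 23324537 reads in each library. Levels below are RPKM unless a count is named, and the GFP library is called the control. Smc1a was at 36.1 in the control and 14.4 with its own hairpin, Ncaph2 at 80.2 in the control and 16.9 and 27.9 with its hairpins, and Smc2 at 26.6 in the control and 18.8 and 19.1 with its hairpins.

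Oxidative phosphorylation is the process by which mitochondria make ATP. Complexes I and II pass electrons from NADH and succinate to ubiquinone, complex III passes them on to cytochrome c, complex IV (cytochrome c oxidase) passes them to oxygen, and complex V uses the proton gradient so formed. Most subunits are encoded in the nucleus and the rest in mitochondrial DNA, and several complex IV subunits exist as a widely expressed form and a form known from muscle, lung or testis.

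In control ESCs the OXPHOS genes were short and highly expressed. In the control 81 of the 85 genes reached an RPKM of 1, with a median of 126, against a median of 14.2 over 12045 genes of all kinds. Their median exon length was 651 bases, against 2684. Atp5b, the catalytic beta subunit of ATP synthase, had the highest level of these genes in every library, with an RPKM of 1541 in the control, 1162 in the SMC1 library, 1385 and 1417 with the CAPH2 hairpins and 1406 and 1360 with the SMC2 hairpins. The highest gene in the control was Ndufb8 in complex I (229), Sdhd in complex II (176), Uqcrq in complex III (405) and Cox4i1 in complex IV (758). The lowest genes at or above an RPKM of 1 there were Ndufb4 (7.57), Sdha (105), Uqcrb (6.28), Cox4i2 (1.66) and Atp5l (1.46) for complexes I to V. Of these, Ndufb4, Uqcrb and Atp5l are among the genes whose level is that of the reads kept, as described next.

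**Figure D1:**
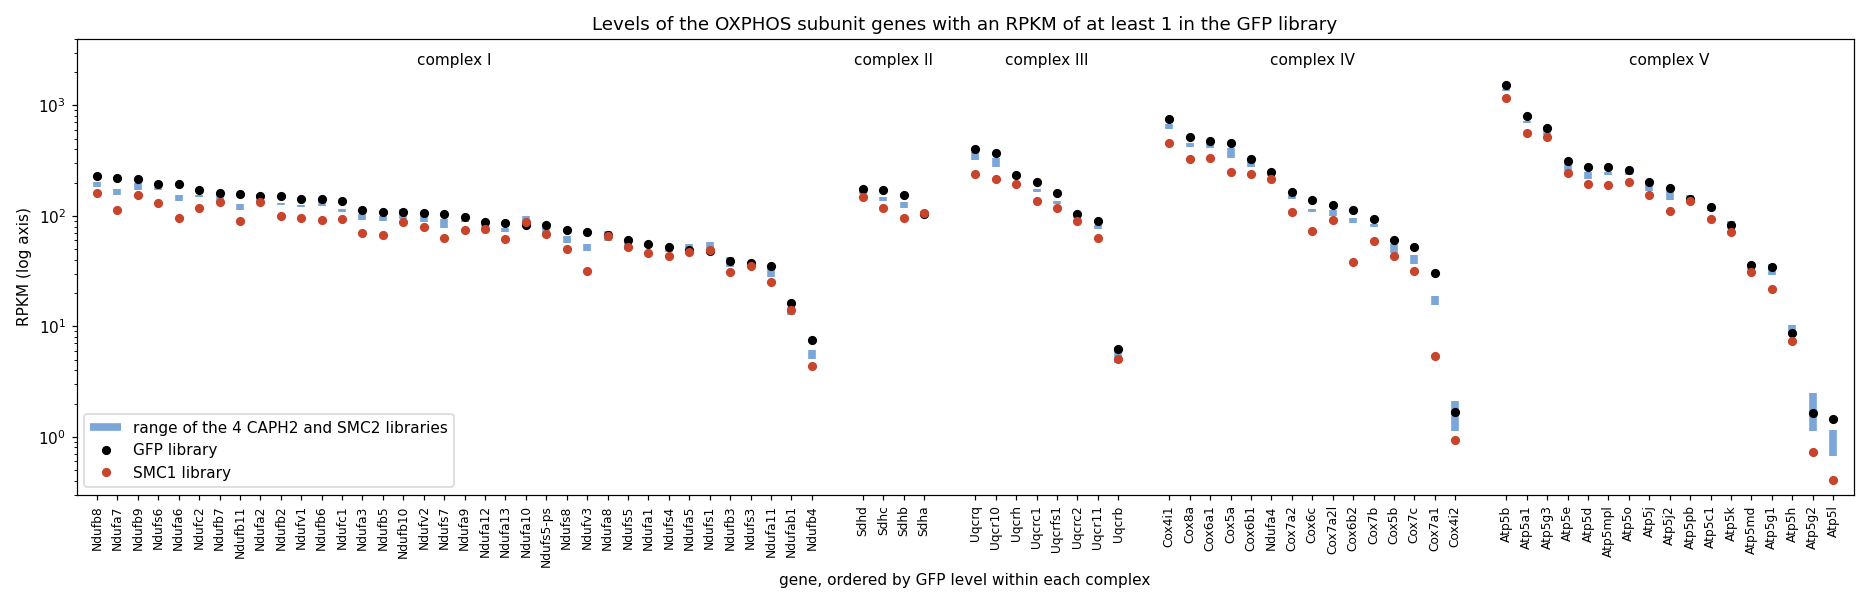
RPKM (log axis) of 80 of the 81 OXPHOS genes at an RPKM of 1 or more in the control, ordered by that level within each complex. Black points are the GFP library, red points the SMC1 library, and blue bars the range of the 4 condensin libraries; for 69 of the 80 genes drawn the red point lies below the other 5 libraries, on the scale of reads per library.

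Several genes at low levels had transcript sequence that recurs elsewhere in the genome. The authors discarded reads that aligned to more than 2 places. The transcripts of 84 genes were therefore cut into all windows of 32 bases, a length set here, and the windows were placed on the mm9 genome. In Atp5g2, which encodes subunit c of ATP synthase, 99.7% of windows lay at more than 2 places, and in Atp5l, which encodes subunit g, 83.3%. Over the 10 expressed genes with more than 25% of such windows, the median RPKM in the control was 12.4, with a range from 1.46 to 60.6. Over the 53 expressed genes with under 1% it was 151. The 10 genes were Atp5g1, Atp5g2, Atp5h, Atp5l, Atp5md, Cox5b, Cox7c, Ndufab1, Ndufb4 and Uqcrb. The level printed for these genes is thus a level of the reads kept, and their place in the order of the subunits cannot be read from it. Their median log2 change in the SMC1 library, -0.57, was beside -0.49 for the 53 genes. Ndufs5 and Ndufs5-ps are near copies of one another, and how the counting split their reads was not tested.

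**Figure D2:**
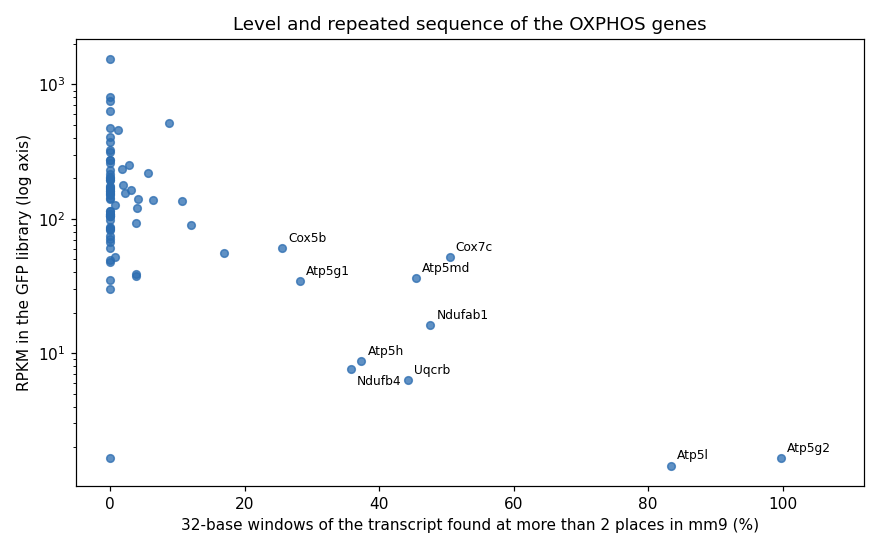
RPKM in the control (log axis) against the percentage of 32-base windows of the gene's transcript that occur at more than 2 places in mm9, 1 point per expressed OXPHOS gene with a matched transcript. The 10 labelled genes have more than 25% of such windows and RPKM values from 1.46 to 60.6; the unlabelled point at the lower left is Cox4i2.

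In the SMC1 library the OXPHOS genes were lower than in the control on the scale of reads per library, and turned higher when RPKM was scaled to the added ERCC RNAs. The median log2 change of the 81 genes was -0.50, with a range from -2.48 to 0.09, against a median of -0.03 over all 12045 genes. In all, 78 genes were lower (52.8% of all genes were) and 3 higher (47.2%): Ndufa10 (0.09), Ndufs1 (0.05) and Sdha (0.03). Past a change of 1.5-fold, 27 of the 81 genes were lower, which is 33.3% against 17.6% of all genes. None was higher past that fold, against 15.1% of all genes. The summed RPKM of all 85 genes was 14678 in the control, 10370 in the SMC1 library, 13129 and 13106 with the CAPH2 hairpins and 13345 and 12342 with the SMC2 hairpins. Scaling to the summed ERCC counts, which were added in proportion to cell number, shifted every gene of the SMC1 library up by 0.86 on the log2 scale, so that the OXPHOS median became 0.37. On that scale 20 of the 81 genes were higher past 1.5-fold, against 67.4% of all genes, and 3 were lower, against 4.69%: Cox7a1, Cox6b2 and Atp5l. The distance of -0.46 between the OXPHOS median and the median of all genes does not depend on the scaling. Directions given hereafter are on the scale of reads per library, except where another scaling is named and in the edgeR tests, which use TMM scaling. Because 1 library stood for GFP and 1 for SMC1, this comparison has no replicate check and no p-value. These are bulk samples, so fewer cells of a type and less RNA per cell cannot be told apart.

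The size of the decrease differed by complex. Complex IV was lowest, with a median log2 change of -0.66 over its 15 expressed genes, 10 of them past 1.5-fold, and a summed RPKM of 63.9% of the control. The medians were -0.49 in complex I, -0.39 in complex II, -0.48 in complex III and -0.38 in complex V. Past 1.5-fold, 10 of 37 genes were lower in complex I, 1 of 4 in complex II, 2 of 8 in complex III and 4 of 17 in complex V. These are shares of 23.5 to 27.0%, beside 66.7% in complex IV and 17.6% of all genes. The summed RPKM was 71.2%, 77.2%, 67.3% and 75.4% of the control in these 4 complexes in the same order. The differences between complexes were not tested.

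**Figure D3:**
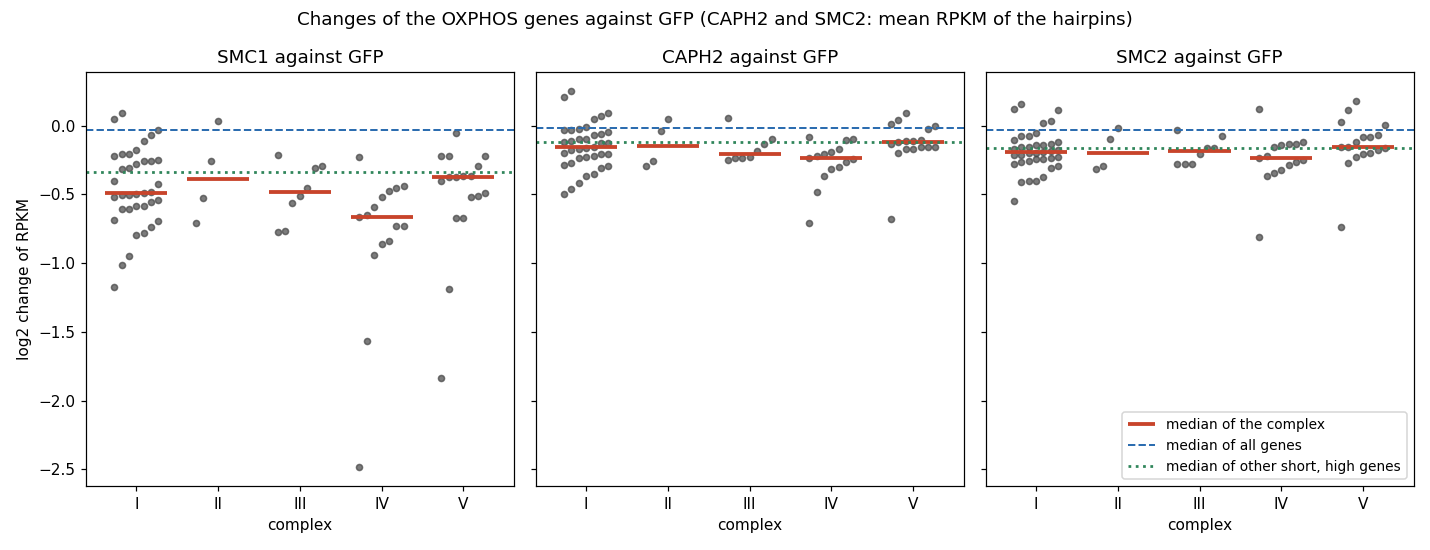
Log2 change of RPKM against the GFP library for the expressed OXPHOS genes by complex, in the SMC1 library and in the means of the CAPH2 and SMC2 hairpins; each point is a gene and red bars are medians. The dashed line is the median of all 12045 genes and the dotted line that of 309 other genes that are short and highly expressed; complex IV in SMC1 has the lowest median, -0.66, and all values are on the scale of reads per library, since scaling to ERCC counts shifts all points of the SMC1 panel up by 0.86.

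Among complex IV genes, the forms known from muscle and testis had the largest decreases. Cox7a1 (NM_009944, chromosome 7 from 30969190 to 30971049, mm9), the form of subunit VIIa known from heart and muscle, had an RPKM of 30.2 in the control, 5.40 in the SMC1 library, 18.9 and 18.1 with the CAPH2 hairpins and 15.6 and 18.9 with the SMC2 hairpins. The SMC1 library held the lowest value and the GFP library the highest, with a gap on either side of the condensin libraries. In the SMC1 library 17.9% of the GFP level was left, from 38 and 238 counts (95% exact binomial interval 12.3 to 25.2, counting error only). Cox7a2, the widely expressed form, had an RPKM of 164 in the control, 109 in the SMC1 library, 146 and 141 with the CAPH2 hairpins and 156 and 143 with the SMC2 hairpins, a log2 change of -0.60 in the SMC1 library. Its own interval, 62.1 to 70.4% of the GFP level, lay above that of Cox7a1.

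Cox6b2 (NM_183405, chromosome 7 from 4703396 to 4704696), the form of subunit VIb known from testis, had an RPKM of 113 in the control, 38.3 in the SMC1 library, 94.4 and 94.3 with the CAPH2 hairpins and 86.7 and 94.9 with the SMC2 hairpins. The condensin libraries lay close together, and the SMC1 library at 33.8% of the GFP level (30.2 to 37.8). Cox6b1, the widely expressed form, was at 325 in the control, 240 in the SMC1 library, 307 and 301 with the CAPH2 hairpins and 315 and 275 with the SMC2 hairpins. Its SMC1 level was 73.9% of the GFP level (70.1 to 77.8), so the intervals of both forms of subunit VIb did not overlap either.

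The other tissue forms were near the limit of detection. Cox4i2, the form known from lung, had an RPKM of 1.66 in the control and 0.93 in the SMC1 library. Cox6a2, the muscle form of subunit VIa, had at most 2 counts in any library, and Cox8b at most 1. Cox7b2 had 4 to 9 counts and Cox8c 2 to 10. These last 4 are the genes with an RPKM below 1 in the control, and no change was read from them. Their widely expressed counterparts were abundant, with RPKM values in the GFP and SMC1 libraries of 758 and 457 for Cox4i1, 474 and 330 for Cox6a1, 93.1 and 58.8 for Cox7b, and 517 and 329 for Cox8a. The log2 change of these 4 genes in the SMC1 library was -0.73, -0.52, -0.66 and -0.65.

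**Figure D4:**
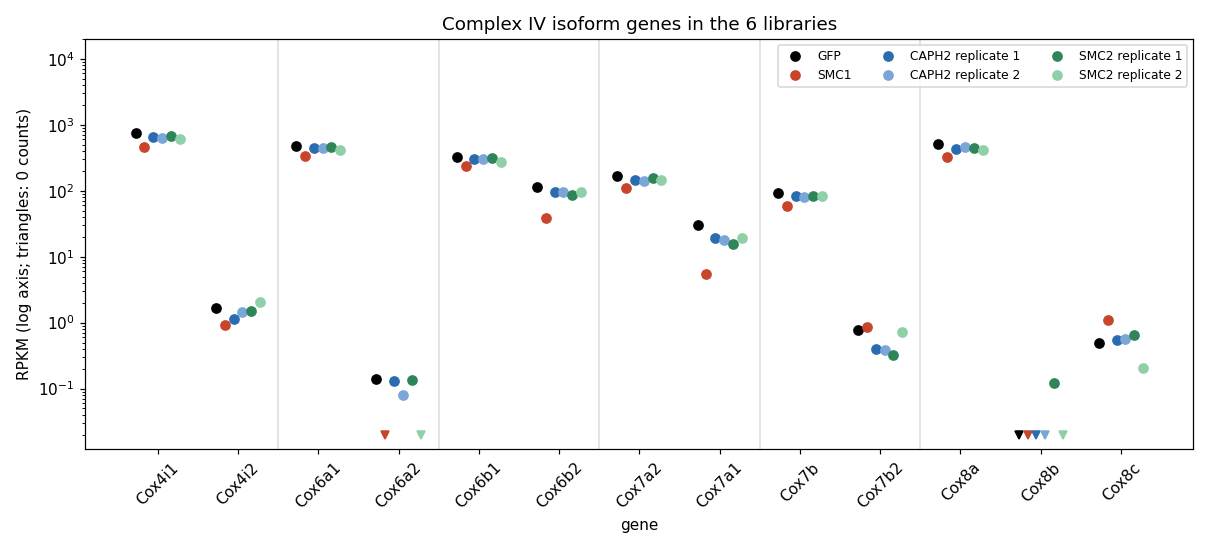
RPKM (log axis) of the complex IV genes with alternative forms, in each of the 6 libraries; vertical lines separate the subunits and triangles mark libraries with 0 counts. Cox7a1 (30.2 in GFP, 5.40 in SMC1) and Cox6b2 (113 and 38.3) lie further below the control in SMC1 than Cox7a2 (164 and 109) and Cox6b1 (325 and 240), and Cox6a2 and Cox8b are near 0; values are per reads of each library.

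The other complex IV genes past 1.5-fold were Cox6c, Cox5a and Cox7c. Cox6c, which encodes subunit VIc, was at 138 in the control and 72.2 in the SMC1 library, with 109 to 115 in the condensin libraries. Cox5a, which encodes subunit Va, was at 457 in the control, 251 in the SMC1 library and 336 to 410 in the condensin libraries. In Cox7c the levels were 52.1 and 31.4, and 36.3 to 43.9 in the condensin libraries, from the reads that its copies leave.

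The stretch before the start site is shown for the 2 genes with the largest decreases and for comparison for Cox6b1, the partner of Cox6b2, and Sdha, whose level in the SMC1 library was not below that of the control. The sequences are the 250 bases before the RefSeq start in GRCm38.p6, 5′ to 3′, for Cox7a1 (chr7:30183921-30184170, plus strand), Cox6b2 (chr7:4753095-4753344, minus strand), Cox6b1 (chr7:30626115-30626364, minus strand) and Sdha (chr13:74350241-74350490, minus strand). Capitals mark matches on either strand to the core of the NRF1 site (GCGC, any base, then TGCGC) and to CCGGAAG, an ETS core of the kind that GABP binds, factors known from nuclear genes for mitochondria.
Cox7a1: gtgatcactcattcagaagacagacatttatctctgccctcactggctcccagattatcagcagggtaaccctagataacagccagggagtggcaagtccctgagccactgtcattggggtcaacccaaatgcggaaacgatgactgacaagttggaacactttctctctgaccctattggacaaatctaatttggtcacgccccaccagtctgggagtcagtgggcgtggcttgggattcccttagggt
Cox6b2: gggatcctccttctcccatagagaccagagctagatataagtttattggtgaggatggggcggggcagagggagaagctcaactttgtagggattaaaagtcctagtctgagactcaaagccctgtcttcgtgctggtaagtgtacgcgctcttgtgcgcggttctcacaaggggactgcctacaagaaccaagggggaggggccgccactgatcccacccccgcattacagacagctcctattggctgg
Cox6b1: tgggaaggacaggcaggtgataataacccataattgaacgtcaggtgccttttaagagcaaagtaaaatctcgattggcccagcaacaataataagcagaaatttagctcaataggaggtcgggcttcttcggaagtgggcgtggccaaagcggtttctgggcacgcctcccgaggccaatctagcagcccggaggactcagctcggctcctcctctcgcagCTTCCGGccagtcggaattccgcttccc
Sdha: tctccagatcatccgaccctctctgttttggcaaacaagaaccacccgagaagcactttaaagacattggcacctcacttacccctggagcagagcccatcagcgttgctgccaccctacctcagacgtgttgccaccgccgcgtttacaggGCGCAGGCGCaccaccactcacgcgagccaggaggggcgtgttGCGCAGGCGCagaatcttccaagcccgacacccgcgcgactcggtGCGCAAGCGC

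No match to either core lay in the stretches of Cox7a1 and Cox6b2. Cox6b1 held 1 match to the ETS core, and Sdha held 3 matches to the NRF1 core. Cox7a2, the partner of Cox7a1, and Ndufa10, also not below the control in the SMC1 library, held no match to either. The stretches shown are thus no contrast between genes with and without a decrease. A RefSeq promoter window of 300 bases, with 50 bases past the start, was matched for 69 of the 85 genes. The NRF1 core was present in 17 of the 69, which is 24.6%, against 5.19% of 27025 genes. The ETS core was present in 17 of the 69, against 9.93% of all genes, and the matches of the 2 cores overlapped in 0 promoters. Both cores are mostly G and C, and the windows of the 69 genes had a median of 58.3% G and C, against 52.75% over all genes. The genes compared with were of any level of expression. The part of base composition and level in these shares was not tested. The median log2 change in the SMC1 library was -0.36 in the 17 genes with the NRF1 core and -0.51 in the 50 expressed genes without it. It was -0.38 in the 17 genes with the ETS core and -0.50 in the 50 without it. These matches describe letters in the windows, and their part in the changes was not tested.

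In complex I the largest decreases were in accessory subunits. Ndufv3 (NM_030087, chromosome 17 from 31657060 to 31668270), a small subunit next to the NADH-binding site, had an RPKM of 71.3 in the control, 31.6 in the SMC1 library, 47.9 and 55.8 with the CAPH2 hairpins and 49.6 and 47.7 with the SMC2 hairpins. Its second RefSeq row, a shorter isoform that shares exons, had RPKM values of 139 and 64.8 in the GFP and SMC1 libraries. Both rows were lowest in the SMC1 library, with log2 changes of -1.18 and -1.10. Ndufa6 was at 194 in the control, 96.3 in the SMC1 library, 136 and 155 with the CAPH2 hairpins and 153 and 141 with the SMC2 hairpins. For Ndufa7 the values were 219, 113, 162 and 176, and 175 and 155 in the same order. Both genes encode small accessory subunits of the matrix arm, and in both the SMC1 library lay below and the GFP library above all condensin libraries. Ndufb11, Ndufb4, Ndufa3, Ndufb5, Ndufb6 and Ndufb2, accessory genes too, had log2 changes from -0.80 to -0.61.

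The core subunits of complex I, which include the carriers of the flavin and iron-sulfur clusters, were unequal. Ndufs1, the largest of them, had an RPKM of 47.8 in the control, 49.5 in the SMC1 library, 57.8 and 52.4 with the CAPH2 hairpins and 53.5 and 49.99 with the SMC2 hairpins. GFP was here the lowest of the 6 libraries. Ndufs7 was at 105 in the control and 63.1 in the SMC1 library, with 77.5 to 94.2 in the condensin libraries. The log2 change in the SMC1 library was -0.73 for Ndufs7, -0.58 for Ndufs8, -0.56 for Ndufv1, -0.42 for Ndufv2, -0.11 for Ndufs3 and 0.05 for Ndufs1. Ndufa10, an accessory subunit related to nucleoside kinases, and Ndufs1 were the 2 genes for which the GFP library lay below the other 5, with Ndufa10 at 82.5 against 86.3 to 101.

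Complex II, succinate dehydrogenase, has 4 subunits, all nuclear. Sdha, the flavoprotein that oxidises succinate, had an RPKM of 105 in the control, 107 in the SMC1 library, 110 and 106 with the CAPH2 hairpins and 102 and 105 with the SMC2 hairpins, so that the groups overlapped. Sdhb, the iron-sulfur subunit, was at 155 in the control, 95.1 in the SMC1 library, 120 and 134 with the CAPH2 hairpins and 131 and 119 with the SMC2 hairpins. The membrane anchors Sdhc and Sdhd had log2 changes of -0.52 and -0.26 in the SMC1 library. Sdhb thus had 61.2% of its GFP level left (57.9 to 64.7) and Sdha 102% (98.8 to 106).

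In complex III the small subunits Uqcrq and Uqcr10 had the largest decreases. Uqcrq had an RPKM of 405 in the control, 239 in the SMC1 library, 337 and 354 with the CAPH2 hairpins and 379 and 323 with the SMC2 hairpins. Uqcr10 was at 371 and 217 in the GFP and SMC1 libraries, with 274 to 336 in the condensin libraries. Both had a log2 change near that of the complex IV genes, -0.76 and -0.77. Uqcrc1, a core protein of complex III, changed by -0.57.

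In complex V the decreases past 1.5-fold with enough counts were in Atp5j2 and Atp5g1. Atp5j2, which encodes the membrane subunit f, had an RPKM of 177 in the control and 111 in the SMC1 library. Atp5g1, a second gene for subunit c, was at 34.5 and 21.6, from the reads kept, since 28.2% of its windows lay at more than 2 places. The catalytic genes had smaller decreases, with log2 changes of -0.41 for Atp5b and -0.52 for Atp5a1, and Atp5pb, the peripheral stalk subunit b, had -0.05. Atp5l and Atp5g2 also passed 1.5-fold, but Atp5l rested on 16 and 4 counts in the GFP and SMC1 libraries, and both genes, like Atp5g1, lie in the group with many copies.

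Against the 4 condensin libraries, which give a spread between hairpins, the SMC1 library was lower for most OXPHOS genes. The edgeR quasi-likelihood test on all 6 libraries in 4 groups, with Benjamini-Hochberg adjustment over 18463 rows, called 52 of 81 genes lower, with 21.3% of all rows called lower, and 0 higher, with 23.1% called higher. The fitted log2 change of all 81 genes was below 0, from -1.75 to -0.00236, with a median of -0.31. Called were 22 of 37 genes in complex I, 3 of 4 in complex II, 7 of 8 in complex III, 11 of 15 in complex IV and 9 of 17 in complex V. The strongest were Cox7a1, with a log2 change of -1.75 (SE 0.236, adjusted p = 0.000343 in edgeR's test), and Cox6b2, with -1.30 (SE 0.106, adjusted p = 2.1e-05 in the same test). Ndufv3 fell by 0.69 on the log2 scale, Cox6c by 0.66, Ndufa6 by 0.62, Cox5a by 0.59 and Ndufa7 by 0.58 with adjusted p values from 0.000398 to 0.00142 in edgeR's test. Sdha (-0.01, SE 0.0692, edgeR adjusted p = 0.959), Ndufs1 (-0.13, SE 0.0843, edgeR adjusted p = 0.228) and Ndufa10 (-0.12, SE 0.0827, edgeR adjusted p = 0.269) did not pass the test. The lone SMC1 library was assumed to vary like the condensin libraries, with 2 residual degrees of freedom. Without SMC2 replicate 1 the count was 39. With the ERCC scaling the median of the SMC1 library against the condensin libraries turned from -0.28 in RPKM to 0.13, with 23 genes below 0. But this turn rested on CAPH2 replicate 2, without which the median was -0.03, with 50 genes below 0. With all 4 condensin libraries the scaling shifted every gene up by 0.42, and the share of all genes below 0 was not counted.

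**Figure D5:**
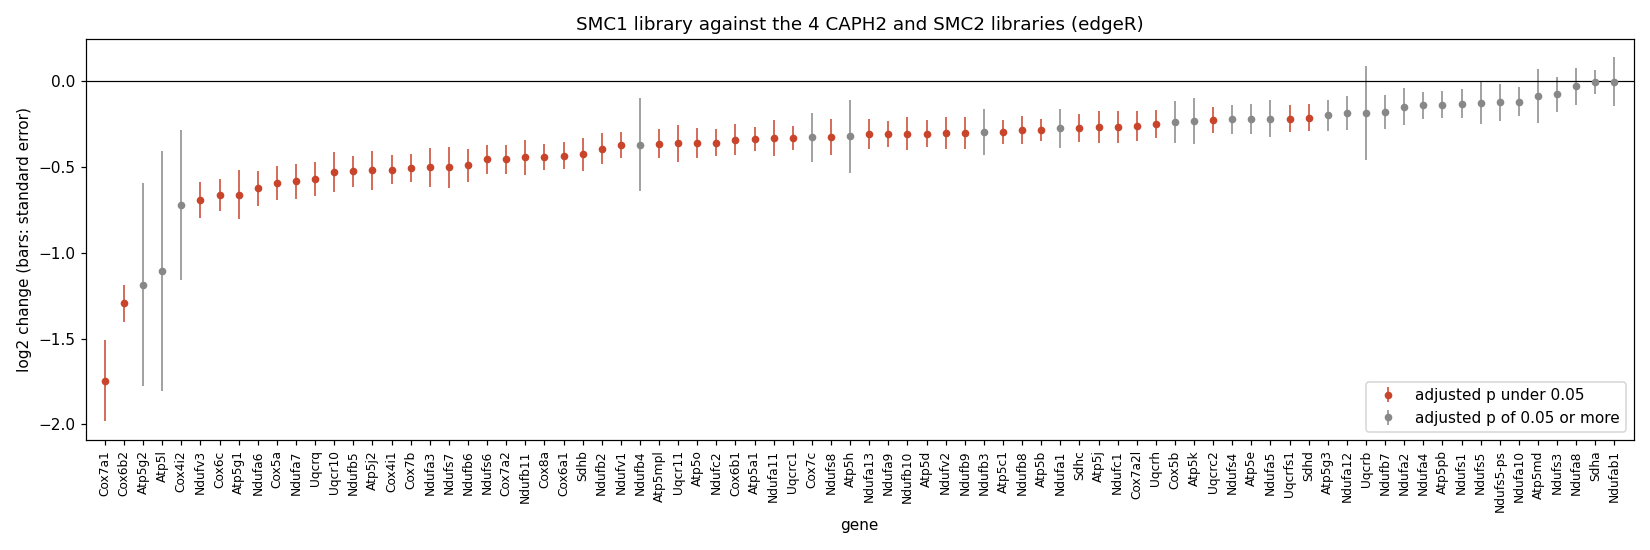
Log2 change of the SMC1 library against the 4 condensin libraries for 80 of the 81 OXPHOS genes tested with edgeR, ordered by size; bars are standard errors and red marks an adjusted p under 0.05. Of the 80 genes drawn 51 are red, led by Cox7a1 at -1.75 and Cox6b2 at -1.30, and genes with wide bars such as Atp5l and Atp5g2 have few counts. The scaling is TMM. With ERCC scaling of RPKM 58 of the 81 genes lie above 0, or 31 without CAPH2 replicate 2. That scaling shifts all genes alike, and the share of all genes above 0 was not counted.

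The genes that did not pass that test were, in complex I, Ndufa1, Ndufa2, Ndufa5, Ndufa8, Ndufa10, Ndufa12, Ndufab1, Ndufb3, Ndufb4, Ndufb7, Ndufs1, Ndufs3, Ndufs4, Ndufs5 and Ndufs5-ps. Elsewhere they were Sdha, Uqcrb, Cox4i2, Cox5b, Cox7c, Ndufa4, Atp5e, Atp5g2, Atp5g3, Atp5h, Atp5k, Atp5l, Atp5md and Atp5pb. As a count that needs no model, the RPKM of the SMC1 library lay below the other 5 libraries for 70 of 81 genes, against 38.1% of all genes, and above them for 0, against 33.8%. All 15 expressed complex IV genes were among the 70. The 11 others were Ndufa2, Ndufa8, Ndufa10, Ndufab1, Ndufb7, Ndufs1, Ndufs3, Ndufs5, Sdha, Uqcrb and Atp5md. With ERCC scaling the SMC1 library was below the others for 4 genes and above them for 14, and without CAPH2 replicate 2 below them for 8. That scaling shifts all genes of a library alike, and the shares of all genes were not counted on it.

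The condensin knockdowns had smaller differences from the GFP library, in the same direction on this scale. With CAPH2 the median log2 change was -0.16, against -0.02 over all genes, and with SMC2 it was -0.18, against -0.03. Scaling to ERCC counts turned these medians to 0.17 and 0.43, but the CAPH2 hairpins then lay on opposite sides of the control. The ERCC-scaled median was 0.47 in CAPH2 replicate 1, with 79 of 81 genes higher, and -0.22 in CAPH2 replicate 2, with 74 lower. It was 0.50 and 0.32 with the SMC2 hairpins. The scaling shifted every gene by 0.63 in CAPH2 replicate 1 and by -0.05 in CAPH2 replicate 2. Before it, the median of all genes was -0.01 and -0.02 in these libraries. The share of all genes higher or lower after this scaling was not counted. With CAPH2 71 genes were lower (52.6% of all genes were) and 10 higher (47.4%). With both CAPH2 hairpins 65 of 81 genes were lower, against 44.4% of all genes, and with both SMC2 hairpins 65 were lower, against 46.3%. With SMC2 71 genes were lower (55% of all genes were) and 10 higher (45%). Past 1.5-fold, Cox7a1 and Atp5l were lower with CAPH2, 2 of 81 against 4.03% of all genes, and 0 were higher, against 3.07%. The same 2 genes were lower with SMC2, against 3.8% of all genes, and 0 higher, against 2.27%. The summed RPKM was 89.5 and 89.3% of the control with the CAPH2 hairpins, and 90.9 and 84.1% with the SMC2 hairpins. All comparisons against GFP share the single GFP library, so a deviation of that library enters each of them.

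After Cox7a1, the largest decreases with enough counts were Ndufb4 (-0.50) and Cox7c (-0.48) with CAPH2, and Ndufv3 (-0.55) and Ndufa7 (-0.41) with SMC2. Among genes with a mean of at least 50 counts, the largest increases were Ndufa10 (0.25), Ndufs1 (0.21) and Atp5pb (0.09) with CAPH2, and Ndufa5 (0.16), Ndufa10 (0.12) and Ndufs1 (0.11) with SMC2. The values of Cox7a1, 18.9 and 18.1 with CAPH2 and 15.6 and 18.9 with SMC2, all lay between GFP and SMC1, as those of Ndufv3, Ndufa6 and Ndufa7 did.

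Against the 4 condensin libraries by edgeR's quasi-likelihood test, the GFP library was higher for 6 of 81 genes, 7.41% beside 5.43% of all rows. It was lower for 0, beside 7.04% of all rows. The share called higher was near that of all rows, so the count is not read as a trait of the OXPHOS genes. The 6 genes were Cox7a1, Ndufv3, Ndufa6, Ndufa7, Ndufb11 and Uqcrc1. The log2 change was 0.75 for Cox7a1 (SE 0.165, adjusted p = 0.0228 in edgeR's test), 0.50 for Ndufv3 (SE 0.0942, adjusted p = 0.0161) and 0.40 for Ndufa6 (SE 0.0936, adjusted p = 0.0265 in edgeR's test). For Ndufa7, Ndufb11 and Uqcrc1 it was 0.38, 0.35 and 0.25. The count depended on single libraries, and the share of all rows called higher also changed when 1 hairpin was left out. The median log2 change of the 81 genes was 0.16 with all libraries. It was 0.18 without CAPH2 replicate 1, 0.18 without CAPH2 replicate 2, 0.21 without SMC2 replicate 1 and 0.16 without SMC2 replicate 2. Sdha was at -0.03 (SE 0.0692, adjusted p = 0.832 in edgeR's test). As a count, the GFP library lay above the other 5 libraries for 60 of 81 genes, against 32.6% of all genes, and below them for 2, against 26.3%. With ERCC scaling the median of the GFP library against the condensin libraries turned from 0.18 in RPKM to -0.27, and to -0.44 without CAPH2 replicate 2.

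The SMC2 and CAPH2 knockdowns, with 2 hairpins on either side, were not told apart in these genes. edgeR's quasi-likelihood test called 0 of 81 genes higher, with 0% of all rows, and 0 lower, with 0.00548% of all rows, and 0 had an unadjusted p under 0.05. DESeq2 called 0 too. The fitted log2 changes ran from -0.17 to 0.50 with a median of -0.02. For Cox7a1 the SMC2 libraries differed from the CAPH2 libraries by -0.09 (SE 0.162), and for Cox6b2 by -0.05 (SE 0.0811). Over all 18245 rows edgeR's test called 1. Smc2 was called, at -1.12 (adjusted p = 0.000329 in edgeR's test). Ncaph2, itself a target, was not called at 1.54 (adjusted p = 0.0511 in the same test). The test can thus miss a change of that size, and the lack of calls does not show that the OXPHOS genes were alike.

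Other short, highly expressed genes were also lower in the SMC1 library. Over 309 genes of other kinds with an exon length of at most 1000 bases and a control level of 50 or more, the median log2 change was -0.34, and 79 were lower and 5 higher past 1.5-fold. The 45 OXPHOS genes with these properties had a median of -0.52, with 18 lower and 0 higher. With CAPH2 the medians were -0.12 and -0.17, and with SMC2 -0.16 and -0.20. The part of length and level in the OXPHOS values was not tested further.

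Other genes of mitochondrial energy metabolism, from lists made with earlier results of these data known, were less low in the SMC1 library. The calls given for these lists stand beside 21.3% of all rows called lower and 23.1% called higher. Neither these lists nor the glycolysis list below were matched to the OXPHOS genes in length or level. The TCA cycle list had a median log2 change of -0.17, and edgeR called 5 of 14 genes lower and 0 higher against the condensin libraries. Its lowest gene was Idh2, the mitochondrial NADP-dependent isocitrate dehydrogenase (-1.52), and its highest Dlst (0.13), a 2-oxoglutarate dehydrogenase subunit. OXPHOS assembly factors had a median of -0.22, with 18 of 44 called lower and 1 higher, and extremes of -0.86 in Lyrm7 and 0.45 in Sdhaf2. Regulators of mitochondrial biogenesis had a median of -0.23, and extremes of -0.65 in Polg2 and 0.30 in Gabpb1. Of these, 3 of 14 were called lower, a share near that of all rows, and 0 higher. Nrf1 itself, the factor of the core searched above, had an RPKM of 23.6 in the control and 25.1 in the SMC1 library. Gabpa, which encodes the DNA-binding subunit of GABP, had 35.3 and 31.1 and 39.6 to 42.5 in the condensin libraries, and was among the 3 called lower. Electron carriers outside the chosen symbols had a median of -0.29, with 3 of 8 called lower and 1 higher, and extremes of -0.998 in Dhodh and 0.47 in Gpd2.

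Glycolysis genes, the other main source of ATP in ESCs, had a median log2 change of -0.70 in the SMC1 library, lower than that of the OXPHOS genes. Of the 21 listed, 10 were called lower and 0 higher against the condensin libraries, with 21.3% and 23.1% of all rows. In the control 14 were called higher than in the condensin libraries, with 5.43% of all rows called higher there. The list ran from -2.85 in Aldoc, a brain form of aldolase, to 0.05 in Gapdh. The limit on repeated sequence holds here too: Gapdh had an RPKM of only 2.49 in the control, and 94.0% of its windows lay at more than 2 places. Eno1, Ldha, Pgam1, Pgk1 and Pkm also had more than 25% of such windows. With CAPH2 and SMC2 the glycolysis medians were -0.50 and -0.52, against -0.16 and -0.18 for the OXPHOS genes.

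Markers of ESCs and fibroblasts moved with the SMC1 library as well. All 13 ESC markers listed reached an RPKM of 1 in the control, with a median log2 change of -1.31 in the SMC1 library. Of these, edgeR called 10 lower and 1 higher against the condensin libraries, with 21.3% and 23.1% of all rows. The gene called higher was Lin28a, an RNA-binding protein gene, at 207 in the control and 347 in the SMC1 library, and Sall4 (-0.06) and Tdgf1 (-0.08) had log2 changes near 0. Their summed RPKM was 4185 in the control, 2543 in the SMC1 library and 3530 to 3754 in the condensin libraries. Of 13 fibroblast markers, 6 reached an RPKM of 1 in the control and 0 were at 0 there. The summed RPKM of the fibroblast markers was 53.8 in the control, 116 in the SMC1 library and 58.7 to 81.5 in the condensin libraries. Of these markers, 7 of 10 tested were called higher in the SMC1 library than in the condensin libraries, with 23.1% of all rows called higher. Col1a1, which encodes a collagen chain, was at 20.8 in the control and 39.4 in the SMC1 library, and Twist1, a mesenchymal transcription factor, at 5.33 and 18.5. The part of these cell states in the OXPHOS values was not tested.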

How the data were processed

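RNA-seq of 6 libraries of V6.5 ESCs was used. Bowtie (-e 70 -k 1 -m 2 -n 2, mm9) and the program RPKM_count 2.3.5 were used by the authors, who deposited counts of exonic reads per RefSeq row. The authors also deposited RPKM, which divides each count by exon length and library reads. Read length was not given in the sources used here. RefSeq accessions gave a symbol for 25353 rows and none for 720. The 92 ERCC rows served only for scaling. Members and gene lists were chosen with earlier results of these data known.

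Log2 changes against GFP used deposited RPKM with no pseudocount, over genes that reached an RPKM of 1 in GFP, and the hairpins of a target were averaged first. Tests used edgeR 4.0.16 (TMM, quasi-likelihood, Benjamini-Hochberg over all rows, adjusted p under 0.05). They were run on the deposited counts of rows that reached 10 counts in 2 or more libraries. SE is the size of the log2 change divided by the square root of F. The step was also run on simulated counts in which all libraries had the same spread. That simulation cannot test the assumption that a lone library varies like the hairpin pairs. Alternatives were DESeq2 1.42.0, rescaling by TMM, by DESeq2 size factors or by ERCC counts, a pseudocount of 1, other filters, a fit with 1 row for each gene, and fits without each hairpin. Totals over RefSeq rows were 25016322 to 30988288 counts, and intervals cover counting error only. Paired libraries are different hairpins, and nothing says that they are separate cultures, so p-values measure the spread between these libraries. Named genes were those past 1.5-fold in SMC1 with at least 50 mean counts, the extremes of each complex and comparison, genes called by a test, the complex IV isoforms, the complex I core and complex II. The results of some genes are not reported here. The genes beyond this rule were named after their values were seen. Figures and other steps used Python 3.11.15, pandas 2.3.3 and scipy 1.17.1. Promoter sequences were from RefSeq in GRCm38.p6 and were not set beside mm9 coordinates. The authors' ChIP-seq data were not used here.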

Additional observations from a re-analysis of the deposited data

How the results depend on the processing

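Scaling to ERCC counts turned the median log2 change of the OXPHOS genes to 0.37 with SMC1, 0.17 with CAPH2 (0.47 and -0.22 in its hairpins) and 0.43 with SMC2 (0.50 and 0.32), and the median against the condensin libraries to 0.13 for SMC1 (-0.03 without CAPH2 replicate 2) and -0.27 for GFP; this scaling adds 1 constant per library. With SMC1 it brought Cox5a to 0.00038, Ndufb4 to 0.066, Ndufb11 to 0.080, Uqcr10 to 0.093, Uqcrq to 0.10, Ndufs7 to 0.13, Cox7c and Cox4i1 to 0.14, Sdhb to 0.16, Ndufa3 to 0.17, Ndufb5 to 0.18, Atp5j2 and Atp5g1 to 0.19, Cox7b to 0.20, Cox8a to 0.21, Ndufb6 to 0.25, Ndufb2 to 0.26 and Cox7a2 to 0.27. In all, the sign turned for 34 of 43 named genes with SMC1, 29 with CAPH2 and 37 with SMC2. Genes past 1.5-fold became 20 higher and 3 lower with SMC1, where 27 had been lower. They became 1 with CAPH2 and 11 with SMC2, all higher. The SMC2 libraries were shifted by 0.64 and 0.57, beside a cutoff of 0.58 on the log2 scale. Genes outside the range of the other libraries became 18 for SMC1 and 8 for GFP. Without CAPH2 replicate 2, GFP was lowest for 73. Shares of all genes with ERCC scaling were counted only past 1.5-fold with SMC1, 67.4% higher and 4.69% lower. The values by hairpin and without a library were chosen after seeing the data. DESeq2 size factors set the CAPH2 median at -0.18. Genes past 1.5-fold with CAPH2 and with SMC2 were 1 each with a pseudocount of 1, with an RPKM of at least 5 in GFP, and with a mean of at least 50 counts, an alternative chosen after seeing the data; the gene lost was Atp5l. Genes higher in GFP than in the condensin libraries were 6, with 5.43% of all rows called higher. They were 11 with DESeq2 size factors, with 6.35% of all rows, and 17 without a filter, with 6.56%. The cause was not tested. Leaving out 1 hairpin gave 4 to 25 there, 39 to 57 for SMC1 against the condensin libraries, 0 in each case for SMC2 against CAPH2, medians of -0.17 to -0.16 with CAPH2 and -0.25 to -0.13 with SMC2, and 1 to 2 and 2 to 3 genes past 1.5-fold. Same-numbered CAPH2 and SMC2 libraries had deviations that correlated at 0.0488 over 18245 rows. Because each library has its own hairpin, this value cannot show whether same-numbered libraries shared a culture or batch. With the replicate block the calls were 0 for SMC2 against CAPH2. They were 56 lower for SMC1, with 24.6% of all rows lower, and 25 higher for GFP, with 11% of all rows higher. DESeq2 called 42 genes lower for SMC1, with 14.7% of all rows lower, and 5 higher for GFP, with 3.18% of all rows higher. The remaining alternatives kept the direction of these medians and the counts within 1.5 times. Of the calls of single named genes, 3 were lost with DESeq2, 1 with its size factors, 1 with a minimum of 50 counts, 2 without SMC2 replicate 1 and 2 without SMC2 replicate 2. Atp5l, Atp5g2 and Cox4i2 have few counts, which limits their precision.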
